A study of Rattus norvegicus with 12 samples.

Results

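Genes of mitochondrial and peroxisomal fatty acid oxidation were followed in rat kidney after cardiopulmonary bypass (CPB, in which a pump and oxygenator take over the circulation) with and without nitrite. The set was a named list of 38 gene symbols, of which 37 were found among the 20455 genes with reads (1 row each), and Decr2 was not analysed here. RNA of whole kidney tissue was sequenced in 3 groups of 4 libraries: CPB+Nitrite (bypass and nitrite, an anion that the body can reduce to nitric oxide), CPB (bypass alone) and sham (the control procedure). The labels give no strain, age, sex, nitrite dose, duration of bypass or time of sampling. They do not state that the libraries of a group come from separate animals, so p-values measure only the spread between these samples, which may be technical.

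Long-chain fatty acids are activated to acyl-CoA by acyl-CoA synthetases, carried into mitochondria by the carnitine shuttle and shortened in a repeating spiral of dehydrogenation, hydration, a further dehydrogenation and thiolysis. Peroxisomes shorten very-long-chain, branched and bile-acid side chains with a separate set of enzymes, in which the opening step is an oxidase that makes hydrogen peroxide. Proximal tubule cells are rich in both organelles and draw much of their ATP from fatty acids, and the nuclear receptor PPARα with the coactivator PGC-1α is a known driver of many of these genes.

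After bypass most of these transcripts were lower than in sham kidneys, and 1 was higher. Of the 37 genes, 23 fell (62.2%), 1 rose and 13 did not pass. Across all 14664 genes tested, 21.5% fell and 21.7% rose in CPB versus sham, so a large share of transcripts differed between these groups in both directions. The median log2 change of the 37 genes was -0.59, beside -0.05 for all genes tested, and 34 of 37 were negative and 3 positive, beside 47.4% positive of all genes tested. In 28 of the 37 all CPB libraries lay below all sham libraries, and in 1 all lay above, beside 24.8% and 23.5% of all genes tested. Calls were made by the quasi-likelihood test of edgeR at an adjusted p under 0.05, with the Benjamini-Hochberg adjustment taken over all genes tested. Levels are counts-per-million (CPM, scaled with edgeR's TMM factors), and changes are on the log2 scale with their standard error (SE). All 37 genes passed the filter on low counts, and the fewest reads behind any value was 90.

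**Figure D1:**
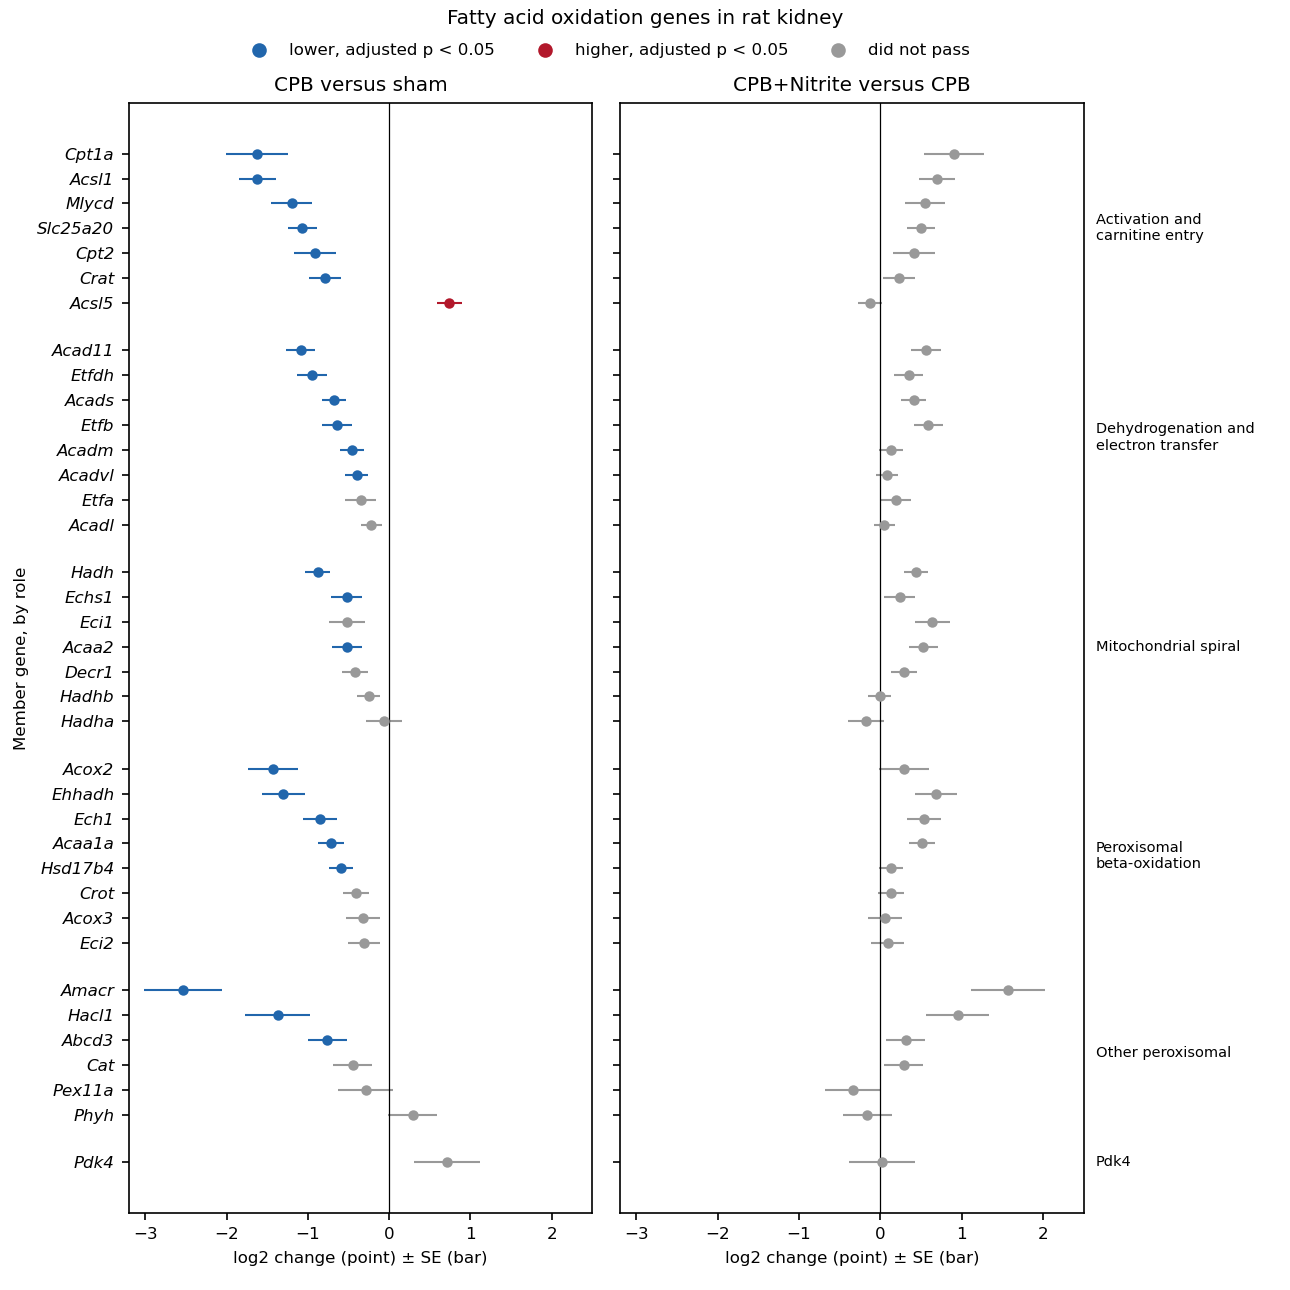
The log2 change of each of the 37 genes (points) with its SE (bars), in CPB versus sham on the left and CPB+Nitrite versus CPB on the right, grouped by role. Blue points fell and the red point (Acsl5) rose at an adjusted p under 0.05, grey points did not pass, and no gene passed on the right, where 32 of 37 points are positive.

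Markers of the proximal tubule, the segment known for these pathways, were lower in sum in both bypass groups than in sham. They were present in every library of this tissue labelled kidney. Their summed level (17 genes) was 10211 to 15348 CPM in CPB+Nitrite libraries, 12008 to 14327 CPM in CPB libraries and 17294 to 19192 CPM in sham libraries. Of these 17 markers 7 fell in CPB versus sham, none rose and 10 did not pass. Across all genes tested 21.5% fell and 21.7% rose. The changes of the markers were negative in 13 and positive in 4, with a median log2 change of -0.66. The positive markers were Cubn, Slc5a2, Slc5a12 and Slc7a7, none of which passed. The marker falls numbered 4 without CPB 3 and 11 by limma voom, which also called 1 marker higher. In whole tissue, fewer cells of a type and less RNA per cell cannot be told apart. Other marker lists set single libraries apart. CPB+Nitrite 2 had 761 CPM for loop and distal tubule markers (7 genes), against 5134 to 9073 CPM in the other CPB+Nitrite libraries, 5363 to 8335 CPM in CPB and 7179 to 9611 CPM in sham. The same library had 2255 CPM for 8 endothelial markers, against 130 to 367 CPM in the other 11 libraries. Sham 1 had 454 CPM for 12 adipocyte markers, against 77.6 to 201 CPM in the other 11 libraries (3 of the 12 are also lipid genes of the lists used below, and Ucp1 was under 1 CPM throughout). Urothelial markers (7 genes) were 17.6 to 272 CPM in CPB+Nitrite, 3.94 to 13.9 CPM in CPB and 2.51 to 182 CPM in sham. Leukocyte markers (10 genes, with Cd3e, Cd3g and Ms4a1 under 1 CPM) were 104 to 187 CPM in CPB+Nitrite, 65.4 to 94 CPM in CPB and 93.9 to 187 CPM in sham, and adrenal markers (4 genes, 3 of them under 1 CPM) did not exceed 3.08 CPM. Collecting duct markers (9 genes) were 1524 to 4229 CPM in CPB+Nitrite, 891 to 1529 CPM in CPB and 1573 to 2136 CPM in sham. Sums do not stand for each marker. Of 7 leukocyte markers tested 1 fell, 2 rose and 4 did not pass in CPB versus sham, with a median log2 change of 0.14. Of 8 endothelial markers 2 fell, 2 rose and 4 did not pass. The part of these differences in the results was not tested. Without sham 1, 18 of the 37 genes fell in CPB versus sham (16.6% of all genes), and without CPB+Nitrite 2, 25 fell (26.2% of all genes).

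The promoters of 6 genes are shown because these genes span the responses. Amacr, Slc25a20 and Acadvl fell and hold a match to a nuclear receptor element, and which receptor might bind it was not tested. Acsl1 fell with the smallest adjusted p and holds none, Acsl5 rose, and Hadha did not pass. Each is the RefSeq window from 250 bases before to 50 bases after the gene's start on the build GRCr8, written 5′ to 3′ on the gene's strand. Capitals mark a match to AGGTCANAGGTCA with at most 2 mismatches on either strand.
Amacr (chr2:61673085-61673384, plus strand): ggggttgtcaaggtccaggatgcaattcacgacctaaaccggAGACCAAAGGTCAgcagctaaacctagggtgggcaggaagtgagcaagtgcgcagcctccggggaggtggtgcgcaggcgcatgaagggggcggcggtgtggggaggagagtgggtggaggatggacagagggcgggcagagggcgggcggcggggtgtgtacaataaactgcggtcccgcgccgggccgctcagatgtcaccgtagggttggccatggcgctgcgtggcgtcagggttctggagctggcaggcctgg
Slc25a20 (chr8:118243323-118243622, plus strand): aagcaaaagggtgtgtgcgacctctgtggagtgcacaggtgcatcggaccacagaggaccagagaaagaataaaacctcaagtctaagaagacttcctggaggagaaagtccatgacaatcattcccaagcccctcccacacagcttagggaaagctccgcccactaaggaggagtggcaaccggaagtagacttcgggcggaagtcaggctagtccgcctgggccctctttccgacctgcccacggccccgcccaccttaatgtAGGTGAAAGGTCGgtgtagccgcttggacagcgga
Acadvl (chr10:55236656-55236955, minus strand): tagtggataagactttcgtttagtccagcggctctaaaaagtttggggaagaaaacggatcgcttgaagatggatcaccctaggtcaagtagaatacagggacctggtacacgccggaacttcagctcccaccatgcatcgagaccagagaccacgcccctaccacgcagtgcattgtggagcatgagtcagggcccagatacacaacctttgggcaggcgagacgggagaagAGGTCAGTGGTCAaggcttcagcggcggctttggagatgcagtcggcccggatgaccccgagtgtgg
Acsl1 (chr16:52532343-52532642, minus strand): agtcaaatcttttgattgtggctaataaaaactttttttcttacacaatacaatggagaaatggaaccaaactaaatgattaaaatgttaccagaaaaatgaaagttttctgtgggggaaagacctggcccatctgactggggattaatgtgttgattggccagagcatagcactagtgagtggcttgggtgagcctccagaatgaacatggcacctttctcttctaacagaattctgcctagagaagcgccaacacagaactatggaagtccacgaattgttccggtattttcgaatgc
Acsl5 (chr1:264294601-264294900, plus strand): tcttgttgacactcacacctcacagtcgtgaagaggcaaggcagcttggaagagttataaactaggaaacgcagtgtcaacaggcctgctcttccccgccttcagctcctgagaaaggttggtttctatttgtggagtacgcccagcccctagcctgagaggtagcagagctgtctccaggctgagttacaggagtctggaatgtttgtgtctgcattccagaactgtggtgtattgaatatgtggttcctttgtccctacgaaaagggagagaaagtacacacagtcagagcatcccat
Hadha (chr6:31907551-31907850, plus strand): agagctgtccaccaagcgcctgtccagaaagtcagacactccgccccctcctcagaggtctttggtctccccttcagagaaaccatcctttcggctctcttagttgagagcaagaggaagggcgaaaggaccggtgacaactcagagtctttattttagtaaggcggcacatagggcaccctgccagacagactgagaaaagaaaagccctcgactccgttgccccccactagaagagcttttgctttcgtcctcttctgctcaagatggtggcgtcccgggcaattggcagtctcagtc

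Promoter windows were matched for 33 of the 37 genes (without Acadl, Acaa2, Decr1 and Ech1). A match to AGGTCANAGGTCA was held by 7 of the 33 windows (21.2%) and by 3.78% of the 33365 rat windows in the table. The Acadvl match, AGGTCAGTGGTCA, has 1 mismatch and starts at position -17 from the gene's start. The Amacr match, AGACCAAAGGTCA, starts at -208 and the Slc25a20 match, AGGTGAAAGGTCG, at 15. The other 4 windows with a match were those of Crat, Echs1, Cat and Etfa. Of the 21 matched genes that fell, 5 hold it, and the other 2 holders, Cat and Etfa, did not pass. The 6-base element AGGTCA alone, which the longer element can contain, was in 9 of 33 windows (27.3%) and in 16.2% of all windows, and AAGGTCA in 3 of 33 (9.09%) and 4.61%. Such matches describe letters within these windows and not binding. Hadha and Hadhb, which encode the subunits of 1 enzyme, lie head to head, and their windows overlap (Hadhb at chr6:31907451-31907750, minus strand).

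In activation and carnitine entry 6 of 7 genes fell after bypass and the seventh rose. The median log2 change of the 7 was -1.07, and of all genes tested 21.5% fell and 21.7% rose. Acsl1, which activates long-chain fatty acids for mitochondria and lipid synthesis (chromosome 16, 45755254 to 45821541, minus strand, build mRatBN7.2), had 76.6, 74.4, 139 and 69.2 CPM in CPB+Nitrite libraries 1 to 4, 46.5, 55.1, 60.3 and 58.9 CPM in CPB libraries and 154, 209, 136 and 181 CPM in sham libraries. Every CPB library lay below every other library, and CPB+Nitrite 3 alone of its group reached the sham range. Acsl1 was 3.08-fold lower in CPB than in sham (log2 change -1.62, SE 0.23, adjusted p = 0.00101). Acsl5, another acyl-CoA synthetase (chromosome 1, 254292521 to 254336607, plus strand), went the other way. It had 122, 146, 110 and 140 CPM in CPB+Nitrite, 133, 123, 158 and 152 CPM in CPB and 74.9, 85.9, 101 and 76.5 CPM in sham. All 8 bypass libraries lay above all 4 sham libraries, and Acsl5 was 1.67-fold higher in CPB than in sham (log2 change 0.74, SE 0.15, adjusted p = 0.00276).

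Cpt1a makes acylcarnitine at the outer mitochondrial membrane and is the step at which malonyl-CoA restrains entry. Its level was 137, 73.8, 333 and 115 CPM in CPB+Nitrite, 108, 87, 82.1 and 73.1 CPM in CPB and 332, 283, 182 and 285 CPM in sham. CPB and sham did not overlap, while CPB+Nitrite ran from the CPB range to just above the highest sham value. Cpt1a was 3.09-fold lower in CPB than in sham (log2 change -1.63, SE 0.38, adjusted p = 0.00584). Slc25a20, the carrier that exchanges acylcarnitine for carnitine across the inner membrane, had 35.5, 55.8, 60.6 and 46.2 CPM in CPB+Nitrite, 40.7, 31.1, 34 and 34.2 CPM in CPB and 85.2, 78.7, 65.5 and 63.9 CPM in sham. All 4 CPB+Nitrite libraries stayed below all sham libraries for this gene, and its change in CPB versus sham was -1.07 (SE 0.18, adjusted p = 0.00136). Mlycd, which degrades malonyl-CoA, had 68.5, 66.1, 137 and 65.8 CPM in CPB+Nitrite, 73, 60.5, 48.4 and 47.7 CPM in CPB and 163, 139, 112 and 113 CPM in sham. CPB lay wholly below sham, CPB+Nitrite 3 lay inside the sham range and the other 3 CPB+Nitrite libraries inside the CPB range. The Mlycd change was -1.20 (SE 0.25, adjusted p = 0.00369). Cpt2, which returns the acyl group to CoA inside mitochondria, changed by -0.91 (adjusted p = 0.0158), and Crat, the carnitine acetyltransferase, by -0.79 (adjusted p = 0.00837).

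**Figure D2:**
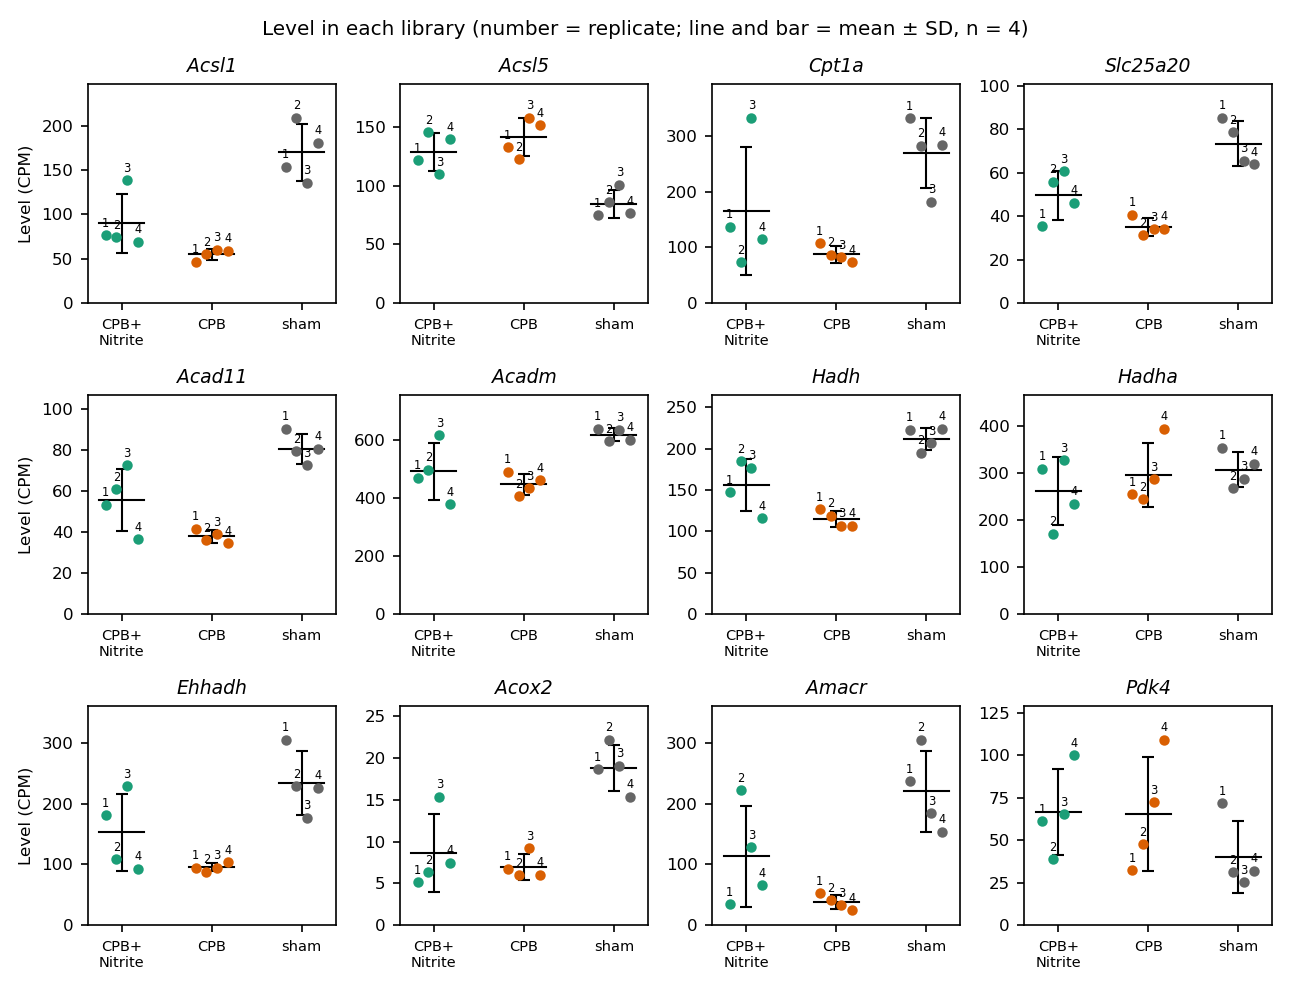
Level (CPM, from 0) in each library of 12 genes chosen to span the roles, with CPB+Nitrite, CPB and sham from left to right. Points are libraries with their replicate number, and lines and bars are the mean ± SD (n = 4). Acsl5 is higher in both bypass groups than in sham, Hadha overlaps across all groups, and CPB+Nitrite 3 stands at 139 CPM for Acsl1 and 333 CPM for Cpt1a.

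Acyl-CoA dehydrogenases open each turn of the spiral, and the electron transfer flavoprotein hands their electrons to the respiratory chain. Of the 8 genes in this role 6 fell after bypass and 2 did not pass, with a median log2 change of -0.55. In CPB versus sham 21.5% of all genes tested fell, and 16.6% fell without sham 1. Without CPB 2 the falls numbered 3, as Acadm, Acadvl and Etfb lost the call, and without any 1 of the sham libraries, CPB 3 or CPB 4 they numbered 4, as Acadm and Acadvl did. Etfdh, the oxidoreductase that passes electrons on to ubiquinone, had 74.3, 96.4, 117 and 61.3 CPM in CPB+Nitrite, 69.9, 60.8, 68.8 and 73.9 CPM in CPB and 115, 128, 147 and 138 CPM in sham. CPB lay wholly below sham, with CPB+Nitrite 3 just inside the sham range, and the change was -0.95 (SE 0.18, adjusted p = 0.00253). Acadm, the medium-chain dehydrogenase, had 471, 498, 617 and 380 CPM in CPB+Nitrite, 491, 406, 434 and 463 CPM in CPB and 639, 596, 636 and 602 CPM in sham. Its groups were also apart, at a smaller change of -0.46 (SE 0.15, adjusted p = 0.0292).

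Acad11, a dehydrogenase of long acyl chains, had 53.2, 60.7, 72.6 and 36.5 CPM in CPB+Nitrite, 41.6, 35.9, 38.9 and 34.6 CPM in CPB and 90.2, 79.3, 72.4 and 80.5 CPM in sham. CPB lay wholly below sham, and CPB+Nitrite 3 sat at the lowest sham value. Its change of -1.09 in CPB versus sham was the largest of the 8 in size (SE 0.18, adjusted p = 0.00139). Acads, the short-chain dehydrogenase, had 98.5, 112, 115 and 77.3 CPM in CPB+Nitrite, 89.7, 73, 70.6 and 70.3 CPM in CPB and 139, 117, 126 and 104 CPM in sham. CPB again lay wholly below sham, and 2 of the CPB+Nitrite libraries lay inside the sham range (change -0.68, SE 0.15, adjusted p = 0.00526). Acadvl, the very-long-chain dehydrogenase, changed by -0.40 (adjusted p = 0.0351). Etfb, a subunit of the flavoprotein, had 176, 110, 122 and 142 CPM in CPB and 242, 227, 215 and 174 CPM in sham, which overlap at 1 library each, and fell by 0.64 (adjusted p = 0.0146). Its partner subunit Etfa had a change of -0.35 (adjusted p = 0.157) and the long-chain dehydrogenase Acadl -0.22 (adjusted p = 0.178), neither of which passed.

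Of the 7 genes of the later steps of the mitochondrial spiral 3 fell, none rose and 4 did not pass, and the median log2 change was -0.52. Among all genes tested 21.5% fell and 21.7% rose in CPB versus sham. The count of falls rested on single libraries. Without any 1 of sham 1, sham 2, sham 4 or the 4 CPB libraries it was 1, with Hadh kept and Acaa2 and Echs1 lost. Without sham 1, 16.6% of all genes fell, a share that 1 of 7 does not exceed. The count was also 1 without a filter on low counts and 6 with total counts. It was 5 by limma voom, in a fit of 2 groups only or without CPB+Nitrite 4. Hadh, which oxidises medium- and short-chain hydroxyacyl-CoA, had 147, 185, 177 and 116 CPM in CPB+Nitrite, 127, 119, 107 and 107 CPM in CPB and 223, 195, 207 and 224 CPM in sham. All CPB+Nitrite libraries stayed below all sham libraries, and 3 of them lay above all CPB libraries. Hadh fell by 0.88 in CPB versus sham (SE 0.15, adjusted p = 0.00168). Acaa2, the thiolase, had 355, 341, 256 and 221 CPM in CPB+Nitrite, 220, 178, 213 and 203 CPM in CPB and 362, 282, 245 and 278 CPM in sham. Each CPB library lay below each library of the other groups, with CPB+Nitrite 4 and CPB 1 next to each other (change in CPB versus sham -0.52, SE 0.18, adjusted p = 0.0339). Echs1, the short-chain hydratase, had 271, 363, 322 and 182 CPM in CPB+Nitrite, 271, 226, 234 and 234 CPM in CPB and 324, 365, 389 and 303 CPM in sham (change -0.52, SE 0.19, adjusted p = 0.0443). CPB lay wholly below sham for Echs1 and CPB+Nitrite ran from below the CPB range into the sham range.

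Hadha and Hadhb, the subunits of the trifunctional protein that handles long chains, did not pass. Hadha had 309, 171, 328 and 235 CPM in CPB+Nitrite, 255, 244, 287 and 394 CPM in CPB and 354, 268, 288 and 320 CPM in sham. The groups overlapped throughout, with the highest of the 12 values in CPB 4 and the lowest in CPB+Nitrite 2. The Hadha change in CPB versus sham was -0.059 (SE 0.22, adjusted p = 0.841), and that of Hadhb -0.25 (SE 0.14, adjusted p = 0.17). Eci1 and Decr1, auxiliary enzymes for unsaturated chains, had changes of -0.52 (adjusted p = 0.0742) and -0.42 (adjusted p = 0.0544) and did not pass.

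Peroxisomal β-oxidation followed the same direction, with 5 of 8 genes lower after bypass, none higher and a median log2 change of -0.66. For all genes tested these shares were 21.5% lower and 21.7% higher. Ehhadh, the bifunctional hydratase and dehydrogenase, had 181, 108, 229 and 93 CPM in CPB+Nitrite, 94.3, 88.1, 94.4 and 104 CPM in CPB and 305, 229, 177 and 226 CPM in sham. CPB lay wholly below sham, CPB+Nitrite 1 and 3 lay inside the sham range and CPB+Nitrite 4 inside the CPB range. Ehhadh was 2.46-fold lower in CPB than in sham (log2 change -1.30, SE 0.26, adjusted p = 0.00306). Acox2, an oxidase of bile acid intermediates, had 5.11, 6.3, 15.4 and 7.47 CPM in CPB+Nitrite, 6.76, 5.94, 9.23 and 6.03 CPM in CPB and 18.7, 22.2, 19.1 and 15.4 CPM in sham. It was 2.69-fold lower in CPB than in sham (log2 change -1.43, SE 0.31, adjusted p = 0.00425), and CPB+Nitrite 3 lay at the lowest sham value while the other 3 CPB+Nitrite libraries lay under the highest CPB value.

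Ech1, an isomerase for unsaturated chains, had 114, 161, 198 and 117 CPM in CPB+Nitrite, 123, 88.2, 92.2 and 102 CPM in CPB and 243, 171, 152 and 164 CPM in sham (change -0.85, SE 0.21, adjusted p = 0.00783). Acaa1a, a peroxisomal thiolase, had 73, 93.3, 95.5 and 71 CPM in CPB+Nitrite, 69.7, 58.1, 53.6 and 52.4 CPM in CPB and 118, 95, 85.6 and 85.8 CPM in sham (change -0.72, SE 0.16, adjusted p = 0.00456). Here all CPB libraries lay below all other libraries, and how reads were shared with its close paralogue Acaa1b is not resolved by the tables. Hsd17b4, the second bifunctional enzyme, changed by -0.59 (adjusted p = 0.00944). Crot, which makes carnitine esters of shortened chains for export, had a change of -0.41 (adjusted p = 0.0606), Acox3 of -0.32 (adjusted p = 0.228) and Eci2 of -0.31 (adjusted p = 0.215).

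The largest change of the set belonged to Amacr, the racemase that readies branched-chain and bile acid intermediates for peroxisomal β-oxidation (chromosome 2, 59946153 to 59958255, plus strand). It had 34.3, 222, 128 and 65.8 CPM in CPB+Nitrite, 52.7, 40.7, 33.1 and 25 CPM in CPB and 237, 305, 184 and 154 CPM in sham. Every sham library lay above every CPB library, and CPB+Nitrite held 1 library inside the CPB range, 1 inside the sham range and 2 between. Amacr was 5.8-fold lower in CPB than in sham (log2 change -2.54, SE 0.48, adjusted p = 0.00228). Hacl1, which cleaves a carbon from 2-hydroxy acids in α-oxidation, had 23.3, 103, 46.6 and 24.9 CPM in CPB+Nitrite, 33, 29, 21.6 and 19.1 CPM in CPB and 67.9, 65.7, 61.7 and 70.3 CPM in sham. CPB lay wholly below sham, and CPB+Nitrite 2 was the highest of all 12 libraries (change in CPB versus sham -1.37, SE 0.40, adjusted p = 0.0158). Hacl1 overlaps Btd on the opposite strand, and whether strand was used in counting is not given in the sources used here. Abcd3, a transporter of acyl-CoA into peroxisomes, had 236, 134, 213 and 111 CPM in CPB+Nitrite, 145, 110, 185 and 119 CPM in CPB and 247, 222, 236 and 241 CPM in sham (change -0.76, SE 0.24, adjusted p = 0.0217). Of the other 3 peroxisomal genes none passed: Cat, the catalase that removes hydrogen peroxide, had a change of -0.45 (adjusted p = 0.145), Pex11a, a peroxisome division factor, of -0.29 (adjusted p = 0.493), and Phyh, the hydroxylase that opens α-oxidation, of 0.29 (adjusted p = 0.435).

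Pdk4 restrains pyruvate dehydrogenase and is usually induced together with fatty acid oxidation. It had 61, 38.8, 65.4 and 100 CPM in CPB+Nitrite, 32.3, 47.4, 72.2 and 109 CPM in CPB and 71.8, 31.1, 25.2 and 32 CPM in sham. The groups overlapped, with sham 1 above the other sham libraries, and the change in CPB versus sham was 0.71 (SE 0.41, adjusted p = 0.179). Without sham 1 the change was 1.15 (adjusted p = 0.0423).

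Grouped by the role lists used here, which do not strictly separate the organelles, 15 of the 22 genes of entry and mitochondrial steps fell and 1 rose. The falls numbered 10 without sham 1, CPB 2 or CPB 3. Of the 14 genes of the peroxisomal lists 8 fell and none rose. The median log2 changes were -0.58 and -0.66. Over all genes tested 21.5% fell and 21.7% rose, and 16.6% fell without sham 1. The difference between these sets was not tested. The mean log2 level of the 37 genes relative to the sham mean was -0.45, -0.38, -0.014 and -0.69 in CPB+Nitrite libraries 1 to 4, -0.54, -0.76, -0.68 and -0.72 in CPB libraries and 0.16, -0.017, -0.089 and -0.058 in sham libraries. CPB+Nitrite 3 lay among the sham libraries and CPB+Nitrite 4 among the CPB libraries on this mean, with CPB+Nitrite 1 and 2 above all CPB libraries and below all sham libraries.

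**Figure D3:**
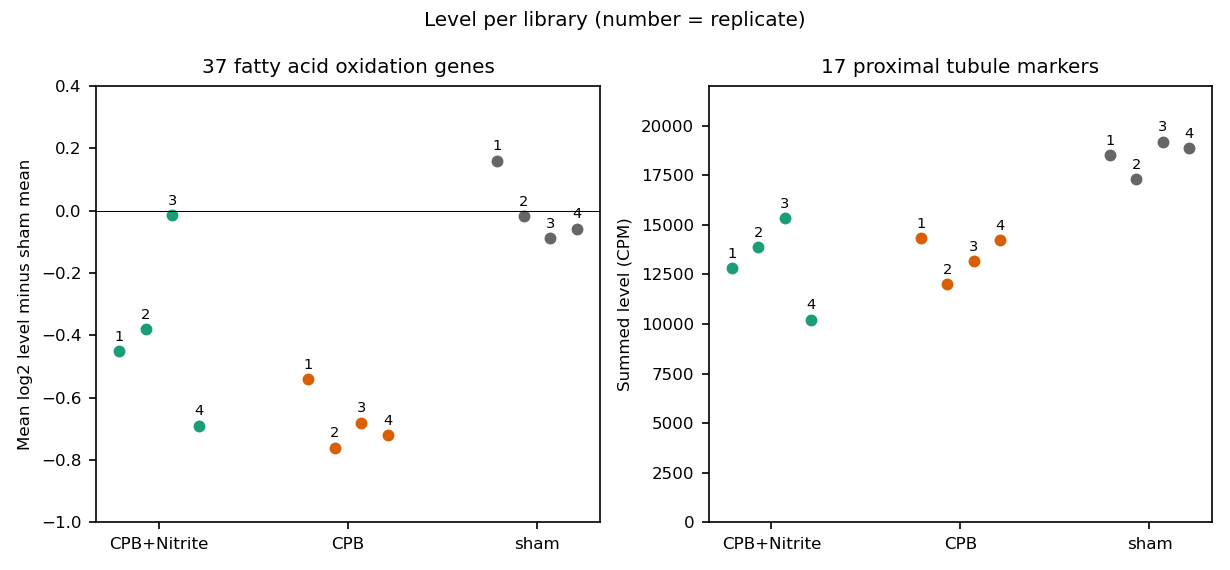
Left, the mean log2 level of the 37 genes in each library relative to the sham mean, and right, the summed level (CPM, from 0) of 17 proximal tubule markers, with CPB+Nitrite, CPB and sham from left to right. Points are libraries with their replicate number. CPB libraries lie at -0.76 to -0.54 on the left and CPB+Nitrite libraries spread from -0.69 to -0.014, and on the right all bypass libraries lie below all sham libraries.

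The wider pathway, in 97 further genes of which 94 were tested, also contained more falls than rises. Of 20 regulators 10 fell, 4 rose and 6 did not pass (median log2 change -0.88). Across all genes tested 21.5% fell and 21.7% rose in CPB versus sham, so the share of regulators that rose was near that of all genes. Ppara, which encodes PPARα, averaged 3.4 ± 2.11 CPM in CPB+Nitrite, 2.15 ± 0.235 CPM in CPB and 8.83 ± 2.08 CPM in sham (SD, n = 4), a change of -2.03 in CPB versus sham (SE 0.41, adjusted p = 0.00309). Ppargc1a, which encodes PGC-1α, averaged 16.6 ± 8.31 CPM in CPB+Nitrite, 10.2 ± 2.87 CPM in CPB and 29.9 ± 10 CPM in sham, a change of -1.55 (SE 0.37, adjusted p = 0.00634). All CPB libraries lay below all sham libraries for both genes. Esrra, an orphan receptor that works with PGC-1α, changed by -0.93 (adjusted p = 0.00107) and Sirt3, the mitochondrial deacetylase, by -1.26 (adjusted p = 0.00164). The 4 regulators that rose, named here after their values were seen, were Ppard (0.72, adjusted p = 0.0111), Prkaa1 (0.63, adjusted p = 0.0131), Rxrb (0.46, adjusted p = 0.0264) and Sirt1 (0.61, adjusted p = 0.0388). That count of 4 was 2 without sham 2, sham 3, sham 4, CPB 2 or CPB 4, and 1 with scaling to total counts.

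Among 33 tested further enzymes of acyl-CoA metabolism 19 fell, 3 rose and 11 did not pass (median -0.55). Without CPB 2 the falls numbered 11, and the rises numbered 1 without sham 2, CPB 3 or CPB 4. Across all genes tested 21.5% fell and 21.7% rose in CPB versus sham. Acot12, an acetyl-CoA thioesterase, changed by -2.12 (adjusted p = 0.00174), Nudt7, a peroxisomal CoA hydrolase, by -1.48 (adjusted p = 0.00258), and Acad9, a dehydrogenase also needed to assemble complex I, by -0.62 (adjusted p = 0.00273). The 3 that rose were Acsl4, a synthetase that prefers arachidonic acid (1.54, adjusted p = 0.00228), and, named after their values were seen, the thioesterase Acot2 (1.03, adjusted p = 0.0252) and the carrier Slc25a17 (0.49, adjusted p = 0.0386). How Acot2 reads were shared with its close paralogue Acot1 is not resolved by the tables. Acsl4 had 169, 54.9, 84.6 and 118 CPM in CPB+Nitrite, 149, 159, 193 and 193 CPM in CPB and 50.1, 47.1, 76.2 and 65.5 CPM in sham, and 1 CPB+Nitrite library lay inside the CPB range.

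Of 18 tested genes of fatty acid uptake, binding and storage 7 fell, 3 rose and 8 did not pass (median -0.60). Across all genes tested 21.5% fell and 21.7% rose in CPB versus sham, so the share that rose here did not exceed that of all genes. Slc22a5, the plasma membrane carnitine transporter, averaged 86.4 ± 13.4 CPM in CPB+Nitrite, 57.9 ± 11.6 CPM in CPB and 144 ± 28.4 CPM in sham (change in CPB versus sham -1.32, SE 0.19, adjusted p = 0.00101). Fabp3, a cytosolic fatty acid binding protein, changed by -1.58 (adjusted p = 0.00253), Plin3, a lipid droplet coat protein, by -0.91 (adjusted p = 0.00259), and the low-level Plin5, which tethers droplets to mitochondria, by -2.49 (adjusted p = 0.0012). The 3 that rose, named after their values were seen, were Plin2, another droplet coat protein (2.82, adjusted p = 0.00445), Angptl4, a secreted inhibitor of lipoprotein lipase (191 ± 57.9 CPM in CPB and 47.7 ± 37.6 CPM in sham, adjusted p = 0.0177), and Fabp5 (0.98, adjusted p = 0.00618). Plin2 had 995, 76.8, 191 and 571 CPM in CPB+Nitrite, 834, 576, 391 and 339 CPM in CPB and 89.7, 55, 75.6 and 81.6 CPM in sham. CPB lay wholly above sham, and CPB+Nitrite 2 lay inside the sham range.

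Of 6 ketone body genes 3 fell and 3 did not pass (median -0.48). For this list and the next, 21.5% of all genes tested fell and 21.7% rose in CPB versus sham. Bdh1 and Bdh2, dehydrogenases of hydroxybutyrate, changed by -1.34 (adjusted p = 0.00209) and -0.68 (adjusted p = 0.0209). Of 17 genes of peroxisome biogenesis 11 fell, 1 rose and 5 did not pass (median -0.64), and the falls numbered 7 without sham 3 or without CPB 4. The ubiquitin ligase subunits of peroxisomal protein import Pex10 and Pex2 changed by -1.07 (adjusted p = 0.00202) and -0.92 (adjusted p = 0.00208), and the membrane biogenesis factor Pex3 by -0.74 (adjusted p = 0.00359). Mpv17l, named after its values were seen, was the gene that rose (0.96, adjusted p = 0.0281), and this call was lost without sham 1, sham 2, sham 4 or CPB 3. Beside these lists, the summed level of the 17 proximal tubule markers was lower in every CPB library (12008 to 14327 CPM) than in every sham library (17294 to 19192 CPM).

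CPB+Nitrite versus CPB asked whether nitrite altered the transcripts of kidneys exposed to bypass. No gene of the set passed, and none of the 14664 genes tested did (0 called, or 0%, by edgeR), although 4315 of all genes (29.4%) had an unadjusted p under 0.05. Of the 37 genes 15 had such a p, and all 15 were higher in CPB+Nitrite. Changes were positive for 32 of 37, beside 54.1% of all genes tested, with a median of 0.29 beside 0.053. The same CPB libraries enter CPB versus sham, where 34 of the 37 changes were negative. These comparisons are therefore not independent, and the shares of all genes do not account for this. In 3 genes (Acsl1, Acaa2 and Acaa1a) all CPB+Nitrite libraries lay above all CPB libraries, beside 6.44% of all genes tested, a share near that background, and in none did they lie wholly below (6.27% of all genes tested). The smallest adjusted p belonged to Amacr, at a change of 1.57 (SE 0.46, adjusted p = 0.0688), followed by Acaa1a at 0.51 (SE 0.16, adjusted p = 0.0736) and Etfb at 0.59 (SE 0.18, adjusted p = 0.0745). Etfb had 200, 252, 210 and 162 CPM in CPB+Nitrite and 176, 110, 122 and 142 CPM in CPB, overlapping at CPB+Nitrite 4 and CPB 1. DESeq2 called 5 of the 37 genes higher in CPB+Nitrite than in CPB (Acsl1, Acad11, Etfb, Acaa1a and Amacr) and none lower, beside 8.85% of genes higher and 5.84% lower by that tool. Without CPB+Nitrite 1, edgeR called 4 higher (Slc25a20, Acaa1a, Hacl1 and Amacr) and none lower, beside 10.6% higher and 8.67% lower of all genes.

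The CPB+Nitrite libraries did not form a uniform group for these genes. Of the 23 genes that fell in CPB versus sham, CPB+Nitrite 3 reached the sham range or above in 17 and lay within or below the CPB range in none. CPB+Nitrite 4 reached the sham range in none and lay within or below the CPB range in 17. For CPB+Nitrite 1 these counts were 4 and 9, and for CPB+Nitrite 2 they were 8 and 7, the rest lying between the groups. The 23 genes were chosen by the same CPB and sham values. The same counts were not taken over all genes tested, so they are not shown to be particular to this set. The summed proximal tubule markers were also highest in CPB+Nitrite 3 (15348 CPM) and lowest in CPB+Nitrite 4 (10211 CPM) among the CPB+Nitrite libraries, and their part in these positions was not tested.

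**Figure D4:**
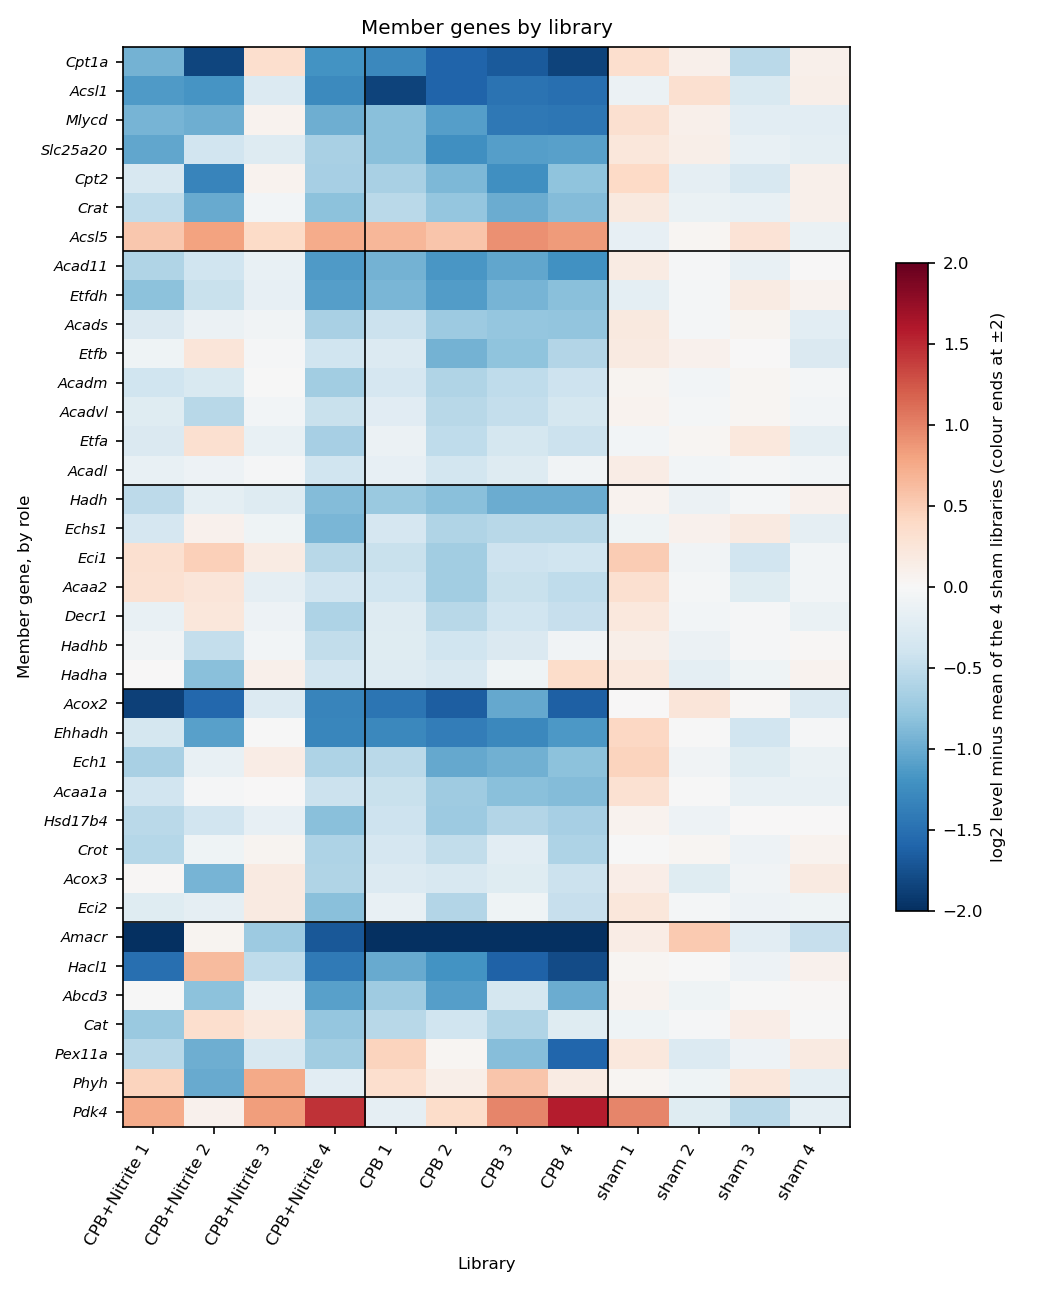
Level of each of the 37 genes in each of the 12 libraries as a log2 difference from the sham mean (colour), ordered by role, with CPB+Nitrite, CPB and sham libraries from left to right. CPB+Nitrite 3 resembles the sham columns and CPB+Nitrite 4 the CPB columns for most genes.

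CPB+Nitrite versus sham showed 1 gene of the set lower, 1 higher and 35 that did not pass, beside 0.955% of all genes tested lower and 3.85% higher. The median log2 change was -0.31, beside 0.037 for all genes tested, and 32 of 37 changes were negative and 5 positive, beside 52.9% positive of all genes tested. The sham libraries are shared with CPB versus sham, so these comparisons are not independent either. Acsl1 was 1.89-fold lower in CPB+Nitrite than in sham (log2 change -0.92, SE 0.22, adjusted p = 0.0441), and Acsl5 was 1.53-fold higher (log2 change 0.61, SE 0.15, adjusted p = 0.0426). Acox2, next by p, had a change of -1.14 (SE 0.31, adjusted p = 0.0525) and did not pass. Both calls lay close to the threshold and were lost when a library was left out in turn, except without sham 3, CPB+Nitrite 2 or CPB+Nitrite 3. Without CPB+Nitrite 3, 13 of the 37 genes were lower in CPB+Nitrite than in sham (9.11% of all genes), among them Cpt1a (-1.31, adjusted p = 0.00542) and Mlycd (-0.98, adjusted p = 0.00528), and without CPB+Nitrite 2, 5 were lower (3.19% of all genes). Genes of the wider lists called in this comparison included Slc22a5 (-0.74, adjusted p = 0.0463), which was lower in CPB+Nitrite than in sham, and Ppard (0.84, adjusted p = 0.0402) and Plin2 (2.60, adjusted p = 0.0413), which were higher. All 3 calls were lost without any 1 of sham 1, sham 2, sham 4, CPB 2, CPB 3, CPB 4, CPB+Nitrite 1 or CPB+Nitrite 4, with the replicate block and in a fit of 2 groups only. Slc22a5 also lost its call without CPB 1 and with total counts, and Plin2 without sham 3 or CPB 1. The summed proximal tubule markers of all 4 CPB+Nitrite libraries lay below those of all 4 sham libraries, and their part in these differences was not tested.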

How the data were processed

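Kidney RNA of 12 samples was grouped by the sample titles. Libraries were strand-specific (NEBNext Ultra II Directional) from DNase-treated RNA, per the labels' protocols. The tools bcl2fastq 2.19, cutadapt 1.18, Salmon 1.2.1 and R 3.5.1 and the build mRatBN7.2 are named in the submitters' processing notes, and the settings and the use of strand are not given in the sources used here. The deposited table of estimated counts held 30208 genes (33.1% of non-zero values not whole, tolerance 1e-06), and these were rounded. A second deposited table held a scaled signal, the same counts times 1 factor per library (largest relative departure 0.0033), and gave symbols, coordinates and an alternative scaling.

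Totals were 16.8 to 25.8 M reads per library (M, mega). Genes were kept by filterByExpr (minimum count 10), which left 14664 genes with 99.95% of reads. TMM factors were 0.887 to 1.11. All comparisons came from 1 fit of 12 libraries without covariates in edgeR 4.0.16 (R 4.3.3; glmQLFit and glmQLFTest, two-sided, 9 residual degrees of freedom), with Benjamini-Hochberg adjustment over all genes at 0.05. SEs came from the F statistic, and the biological coefficient of variation was 0.317. The steps were tested on simulated counts. Other settings tried were DESeq2 1.42.0, voom of limma 3.58.1 with sample weights, a fit of 2 groups only, each library left out, a replicate block, no filter or a mean of at least 2 CPM, and scaling by RLE factors, total counts or the authors' factors.

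The members, lists, named-gene rule and alternatives were chosen with earlier results of these data known. The rule gave full values to Cpt1a, Pdk4, the members of each role with the smallest p among those that passed in CPB versus sham without overlap of the groups (up to 4), the 3 with the smallest p in each other comparison, and in the wider lists Ppara, Ppargc1a and up to 4 members a list by p. Some genes that the rule allows are not reported here. Of the members, 1 (Etfb) overlaps a gene on its own strand (Vsig10l) and 7 a gene on the opposite strand. Promoters came from a RefSeq table on GRCr8, searched on both strands.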

Additional observations from a re-analysis of the deposited data

Results flagged for a closer look

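Values were examined in each group for a library whose gap to its nearest neighbour, as a share of the group's range, exceeded Dixon's 95% critical value. Of 228 groups (76 genes or marker sums in 3 groups) 15 met this, and chance alone gives about 1 in 20.

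In CPB+Nitrite 3, Acsl1 had 139 CPM (69.2 to 76.6 in the other 3 libraries of its group), Mlycd 137 CPM (65.8 to 68.5), Hnf4a 841 CPM (207 to 278) and Bdh1 41.5 CPM (19 to 21.6). In CPB+Nitrite 2, Fabp3 had 106 CPM (47.3 to 52.1), the collecting duct markers summed to 4229 CPM (1524 to 1776) and the endothelial markers to 2255 CPM (203 to 367). In CPB 1, Acads had 89.7 CPM (70.3 to 73) and Bdh2 62.9 CPM (43.5 to 46.3).

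In sham 1, Acadl had 211 CPM (182 to 184), Pdk4 71.8 CPM (25.2 to 32) and Sirt1 24.2 CPM (31 to 31.9). In sham 2, Hnf4a had 613 CPM (743 to 764), Acot2 48.8 CPM (64.9 to 66.7) and Pex2 33.4 CPM (27.3 to 28.3).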

How the results depend on the processing

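The number of the 37 genes lower in CPB versus sham was 23 and ran from 17 (without CPB 2) to 29 (limma voom with sample weights), with 17 to 26 when a library was left out. It was 22 with RLE factors, 28 with total counts, 21 with the authors' factors, 20 without a filter, 25 at a mean of 2 CPM, 23 with the replicate block, 23 by DESeq2 and 27 in a fit of 2 groups only. In every one of these settings 16 genes were called lower: Acaa1a, Acad11, Acads, Acox2, Acsl1, Amacr, Cpt1a, Crat, Ech1, Ehhadh, Etfdh, Hacl1, Hadh, Hsd17b4, Mlycd and Slc25a20. Abcd3, Acaa2, Acadm, Acadvl, Cpt2, Echs1 and Etfb lost the call in at least 1. Acsl5 was the 1 gene higher, and voom and the fit without sham 1 called 2 (range 1 to 2 with a library left out), the added gene being Pdk4. Total counts moved the median of all genes in CPB versus sham to -0.24, against -0.05 with TMM.

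For CPB+Nitrite versus CPB the number higher was 0 in edgeR, 5 by DESeq2 and 0 to 4 with a library left out. For CPB+Nitrite versus sham 1 gene was lower, and 2 were with RLE factors, 2 with the authors' factors, 2 at a mean of 2 CPM, 5 by DESeq2, 12 by voom, 0 with the replicate block, 0 in 2 groups only and 0 to 13 with a library left out. The 1 gene higher was lost (0) with total counts, the replicate block and 2 groups only, and the range with a library left out was 0 to 1. The cause was not tested.

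Deviations from the group means had correlations of -0.107 to 0.381 between same-numbered samples and -0.313 to 0.352 between differently numbered samples. Whether same-numbered samples share more than a number is not settled by these correlations. The replicate block changed no call in CPB versus sham among these genes, and in CPB+Nitrite versus sham Acsl1 (adjusted p = 0.072) and Acsl5 (adjusted p = 0.0733) no longer passed.

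Signs were followed across settings for all genes of the set in CPB versus sham. In the other comparisons they were followed only for the members that the rule named, so other members near 0 were not examined. Among these, signs turned in 5 values, none of which passed in a setting where the sign differed. With a library left out in turn, Hadha in CPB versus sham ran from -0.23 to 0.023. In CPB+Nitrite versus CPB, Acox2 ran from -0.15 (without CPB+Nitrite 3) to 0.45, and Pdk4 from -0.25 to 0.39, with -0.0016 under RLE factors and -0.0051 by DESeq2. In CPB+Nitrite versus sham, Etfb ran from -0.17 to 0.034 and Acaa2 from -0.11 to 0.13, with Acaa2 at -0.072 under total counts, -0.011 without a filter, -0.05 by voom and -0.0013 in 2 groups only.

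With 4 libraries a group and a wide CPB+Nitrite group, changes of modest size that did not pass are not shown to be absent. The lowest count behind a value of the set was 90 reads.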

Other observations

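CPB+Nitrite 3 was also the highest of its group in some genes beyond the set. Others peaked elsewhere in that group, such as Plin2 in CPB+Nitrite 1 and Fabp3 in CPB+Nitrite 2. Hnf4a, a transcription factor of tubule epithelium, named after its values were seen, had 278, 223, 841 and 207 CPM in CPB+Nitrite, 307, 246, 309 and 183 CPM in CPB and 764, 613, 743 and 747 CPM in sham. CPB+Nitrite 3 was above every sham library and the other 3 CPB+Nitrite libraries were within the CPB range. The change in CPB versus sham was -1.46 (SE 0.39, adjusted p = 0.0115 by edgeR). Cpt1b, the carnitine palmitoyltransferase known from muscle and also named after its values were seen, had 7.52, 11.1, 27.7 and 16.5 CPM in CPB+Nitrite, 7.98, 10.1, 7.42 and 11.3 CPM in CPB and 19.2, 36.7, 27.9 and 34.8 CPM in sham. It fell in CPB versus sham like Cpt1a, by 1.69 (SE 0.35, adjusted p = 0.00356).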
